A study of Homo sapiens with 10 samples.

Results

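The genes described here are 41 members of the TGF-beta and BMP pathway, chosen by name, out of 27945 gene symbols in the RNA-Seq table. They comprise 7 ligands, 4 latent TGF-beta binding proteins, 6 antagonists, 8 receptors, 6 SMADs, 5 SMAD regulators and 5 target genes. RNA-Seq was carried out on EA.hy926, an established hybrid line of a primary human umbilical vein endothelial cell and the lung carcinoma line A549. Clonal lines carried a homozygous CRISPR/Cas9 deletion of the promoter of *VEGFA-LNC* (3 clones) or of *VEGFC-LNC* (3 clones), lncRNAs transcribed near *VEGFA* and *VEGFC*. Each deletion had 2 control libraries of its own, from cells that were given the gRNAs but no Cas9 and were selected alongside. All 10 libraries were of total RNA depleted of rRNA, no other agent was named for any group, and each deletion library came from 1 clone.

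In this pathway, dimeric ligands of the TGF-beta, activin and BMP families bring type I and type II receptor kinases together. The type I receptor then phosphorylates receptor SMADs, SMAD2 and SMAD3 for TGF-beta and activin and SMAD1, SMAD5 and SMAD9 for BMPs, which enter the nucleus with SMAD4. Among their targets are genes that restrain the pathway, such as *SMAD7* and *SKIL*, and the *ID* genes, which answer to BMPs. In endothelial cells the pathway is known for its part in vessel formation, through the co-receptor endoglin and BMP receptors, and for the transition of endothelial to mesenchymal cells.

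The libraries held between 6743973 and 24197619 reads. The endothelial list was present, with 8 to 11 of its 12 markers at 1 FPKM or more and a summed level of 295.3 to 1010 FPKM, while *CLDN5* was at 0 throughout. Of 10 epithelial markers, *KRT7*, *KRT8* and *KRT18* reached 1 FPKM, with sums of 439.1 to 1312 FPKM, and *CDH1* was at 0 or near it. The control pairs lay much closer together than the clones: the median SD over genes on the log2 scale was 0.065 and 0.064 within the control pairs, against 0.287 within the *VEGFA-LNC* clones and 0.249 within the *VEGFC-LNC* clones. The labels do not say whether both controls of a pair came from separate clones, and p-values measure only the spread between these libraries, which may be technical. With each control pair counted as 1 sample, the spread comes from the clones alone. That leaves 1 sample in each control group, so that no call is read from that fit. The calls below count both controls of a pair as separate samples. The levels of the lncRNAs themselves were not analysed here.

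Of the 41 members, 38 reached 1 cpm in at least 2 libraries and were tested among 13333 genes, and 30 reached it in all 10. *BMP2*, *BMP4* and *GREM1* did not pass. *TGFB2* and *PMEPA1* passed through the *VEGFA-LNC* controls alone, where they are high, so that the filter fixed their direction against these controls. Counts of called members and medians are therefore given for the 36 members that passed in 2 groups or more, and both genes are described by their levels. Counts at an unadjusted p under 0.05 cover all 38 members, both genes included. Of all tested genes, 13136 passed in 2 groups or more. Levels are given in FPKM, that is, reads corrected for transcript length and library size, so that genes of different length can be set side by side. A member is called (a DEG) when its difference on the scale of log2(FPKM + 0.1) passes an FDR (limma, adjusted over all 13333 genes) of 0.05 and reaches 1.5-fold (FC) either way.

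The most abundant member was *ENG*, which encodes the co-receptor endoglin, with a mean of 297 FPKM over the 10 libraries. It was followed by *TGFBR2*, the type II receptor of TGF-beta, at 127 FPKM. *FSTL1* (82.9 FPKM), *SMURF2* (79.9 FPKM), *TGFB1* (79.2 FPKM) and *TGFBI* (78.0 FPKM) came next, and their ranges over the libraries overlapped. In all, 7 members had a mean of at least 50 FPKM, 11 lay from 10 to 50, 16 from 1 to 10 and 7 under 1 FPKM. The low end held *TGFB2*, *TGFB3*, *BMP2*, *BMP4*, *GREM1*, *FST* and *PMEPA1*, so that *TGFB1* was the TGF-beta ligand and *BMP6* the BMP ligand with the highest level here. The widest range on the log2 scale was that of *ID2* (4.93, from 0.109 to 6.26 FPKM), followed by *BAMBI* (4.52), and the narrowest was that of *SMAD2* (0.37). The lowest value of *ID2* rests on 1 read and that of *BAMBI* on 2 reads.

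For 2 members on which the results turn, the 250 bases before the start of the tested transcript are shown, read from hg19 on the strand of the gene. *FSTL3* was called upon *VEGFA-LNC* deletion and in the difference between the deletions, and *ID3* had the highest level among the called target genes. The windows lie upstream of the first exon of the listed transcript, at chr19:676139-676388 (plus strand, NM_005860) and chr1:23886286-23886535 (minus strand, NM_002167). Capitals mark CAGAC on either strand (read as GTCTG on the other), the core of the SMAD binding element, and GGCGCC, a GC-rich site that SMADs also bind.
FSTL3: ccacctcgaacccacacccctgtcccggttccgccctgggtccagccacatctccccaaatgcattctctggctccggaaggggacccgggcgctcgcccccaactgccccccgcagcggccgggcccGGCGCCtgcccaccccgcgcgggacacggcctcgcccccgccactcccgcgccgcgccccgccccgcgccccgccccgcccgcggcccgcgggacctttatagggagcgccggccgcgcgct
ID3: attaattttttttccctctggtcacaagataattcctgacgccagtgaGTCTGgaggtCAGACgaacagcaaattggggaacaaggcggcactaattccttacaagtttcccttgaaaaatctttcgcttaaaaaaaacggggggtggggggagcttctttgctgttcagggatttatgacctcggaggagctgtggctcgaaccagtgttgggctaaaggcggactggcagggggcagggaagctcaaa
CAGAC was found once or more in 17 of the 38 members tested and in 36.5% of the windows of all 13333 tested genes. GGCGCC was found in 9 of the 38 members and in 22.2% of all windows, and matches of the motifs can share 1 base at their ends. *ID3* held 2 matches of CAGAC and *FSTL3* 1 match of GGCGCC. A match of such short letters is a description of these windows.

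Upon *VEGFA-LNC* deletion, which addresses what the loss of that lncRNA's promoter does to the transcriptome, 5 of the 36 members were called lower and 1 higher. The lower members were *SKIL*, *FSTL3*, *SMAD7*, *ID2* and *ID3*, and the higher one was *LTBP4*. Over all 13333 tested genes, 2.02% were called lower and 0.735% higher, and over those that passed in 2 groups or more 1.83% and 0.708%. The median log2 difference was -0.21 over the 36 members and -0.06 over all genes. By role, the median was -1.61 for 4 target genes, -0.98 for the 5 antagonists and -0.66 for 4 ligands, and 0.15 for the 8 receptors and 0.09 for the 6 SMADs. In bulk RNA, fewer cells of a type and less RNA per cell cannot be told apart.

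Upon *VEGFC-LNC* deletion, 1 member was called higher, *NOG*, and 0 were called lower by limma. Over all tested genes, 0.15% were called higher and 0.323% lower. Against all 4 controls, 0 members were called, against 0.413% of all tested genes. At an unadjusted p under 0.05 by limma, 4 of the 38 members were higher and 1 lower, and against all 4 controls 2 were higher and 6 lower. The share over all genes at that cut was not counted, so that this balance is no result about the members. The median log2 difference from their own controls was 0.09 over the 36 members and -0.09 over all tested genes. Clones and controls did not overlap in 20 members, 13 of them higher and 7 lower, where 17.2% of all genes were higher and 30.6% lower without overlap. In the *VEGFA-LNC* set they did not overlap in 3 members that were higher and 14 that were lower, *TGFB2* and *PMEPA1* among them, against 15.3% and 23.7% of all genes. In an exact permutation test of single members, 3 clones against 2 controls allow 10 arrangements. By the two-sided rule used, which doubles the smaller tail, p cannot go below 0.2. The 17 members in the *VEGFA-LNC* set and 20 in the *VEGFC-LNC* set at that value are those without overlap, so that this test adds nothing to those counts.

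**Figure D1:**
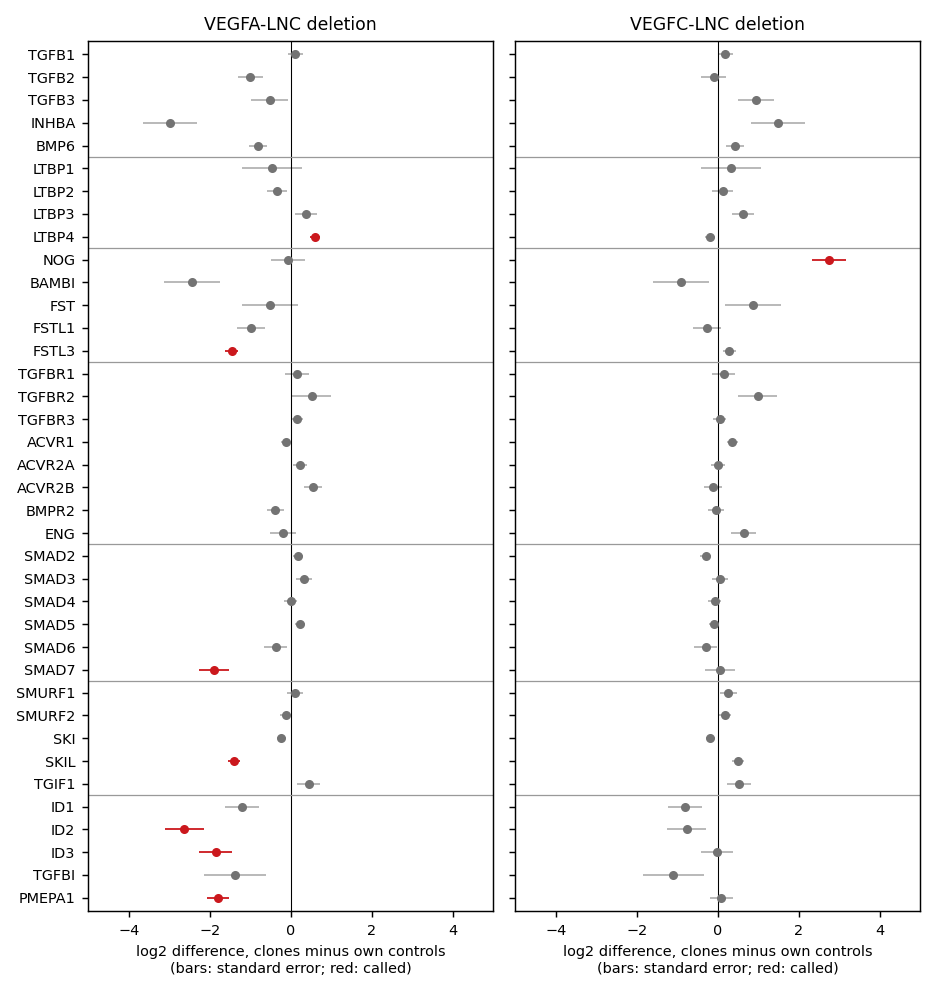
Log2 difference of FPKM + 0.1 between the clones and their own controls for the 38 members tested, left for *VEGFA-LNC* and right for *VEGFC-LNC* deletion, with bars for the standard error. Red points mark the members past the thresholds, 7 on the left, with *PMEPA1*, which passed the filter through its high controls alone, among them, and 1 on the right.

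Among the SMAD regulators, *SKIL* encodes SnoN, a co-repressor that binds SMADs and is itself induced by TGF-beta. It was at 37.3 and 38.1 FPKM in the *VEGFA-LNC* controls and at 14.002, 15.17 and 13.31 FPKM in the clones. It was at 18.8 FPKM in both *VEGFC-LNC* controls and at 31.9, 24.3 and 24.2 FPKM in those clones. Thus every *VEGFA-LNC* clone lay below every other library, and every *VEGFC-LNC* clone above its controls. The log2 difference was -1.41 (SE 0.14, FDR 0.00377) upon *VEGFA-LNC* deletion and 0.49 (SE 0.14, FDR 0.151, not called) upon *VEGFC-LNC* deletion. The 2 differences differed by 1.90 (SE 0.20, FDR 0.00688).

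The other SMAD regulators were not called in either deletion. *SKI*, the related co-repressor, ranged from 10.8 to 16.7 FPKM, with log2 differences of -0.24 and -0.19. The ubiquitin ligases *SMURF1* and *SMURF2*, which mark SMADs and receptors for degradation, differed by 0.10 and -0.12 upon *VEGFA-LNC* deletion. Upon *VEGFC-LNC* deletion they differed by 0.26 and 0.17. *TGIF1*, a co-repressor of SMAD2 and SMAD3, was at 29.0 and 30.1 FPKM in the *VEGFA-LNC* controls and at 25.7, 54.1 and 46.8 FPKM in clones 1 to 3, so that the clones lay on both sides of the controls.

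Among the antagonists, *FSTL3*, a secreted protein that binds activins, fell from 12.8 and 15.0 FPKM in the *VEGFA-LNC* controls to 4.78, 5.02 and 5.12 FPKM in the clones. The log2 difference was -1.46 (SE 0.16, FDR 0.00523), a 2.75-fold change on the scale of FPKM + 0.1. For *VEGFC-LNC*, the controls were at 3.95 and 3.28 FPKM and the clones at 5.10, 4.04 and 4.15 FPKM, a log2 difference of 0.28 (SE 0.16, FDR 0.359). All clones of the *VEGFC-LNC* set were thus above their controls, but by less than the test could call, and the difference between the deletions was 1.74 (SE 0.23, FDR 0.0134).

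*NOG* encodes noggin, a secreted protein that binds BMPs and keeps them from their receptors. It rose from 0.502 and 0.678 FPKM in the *VEGFC-LNC* controls to 6.76, 3.06 and 4.32 FPKM in the clones. These are 9 and 31 reads in the controls and 286, 107 and 55 reads in the clones. The log2 difference was 2.74 (SE 0.43, FDR 0.0367), 6.69-fold on the scale of FPKM + 0.1. In the *VEGFA-LNC* set, *NOG* was at 1.25 and 1.34 FPKM in the controls and at 0.783, 1.06 and 2.16 FPKM in the clones, which lay on both sides (log2 difference -0.07, FDR 0.946). All *VEGFC-LNC* clones were above every other library. The difference between the deletions was 2.81 (SE 0.60, FDR 0.061) and did not pass. Without clone 1, 2 or 3 of the *VEGFC-LNC* set *NOG* was no longer called, against 0.608%, 0.173% and 0.405% of all genes, and 0.473% with all libraries. The calls without 1 of the controls are given with the other alternatives below. The *VEGFA-LNC* controls do not enter the *NOG* difference, and act on its call only through the spread shared by the 4 groups.

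*BAMBI*, a decoy receptor without a kinase, was at 3.65 and 3.14 FPKM in the *VEGFA-LNC* controls and at 1.06, 0.284 and 0.502 FPKM in the clones, without overlap. Its log2 difference of -2.44 had an SE of 0.70 and did not pass (FDR 0.103). The *VEGFC-LNC* controls were at 0.429 and 0.481 FPKM, with 0.753 FPKM in clone 1 and 0.063 and 0.086 FPKM in clones 2 and 3. *FSTL1*, a secreted glycoprotein related to follistatin, was at 110 and 119 FPKM in the *VEGFA-LNC* controls and at 103, 52.5 and 36.1 FPKM in the clones (log2 difference -0.98, FDR 0.175). *FST*, follistatin itself, spanned 0.238 to 2.06 FPKM among the *VEGFA-LNC* clones, on both sides of its controls, and stayed under 0.3 FPKM throughout the *VEGFC-LNC* set. *GREM1*, a BMP antagonist, did not exceed 0.386 FPKM.

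**Figure D2:**
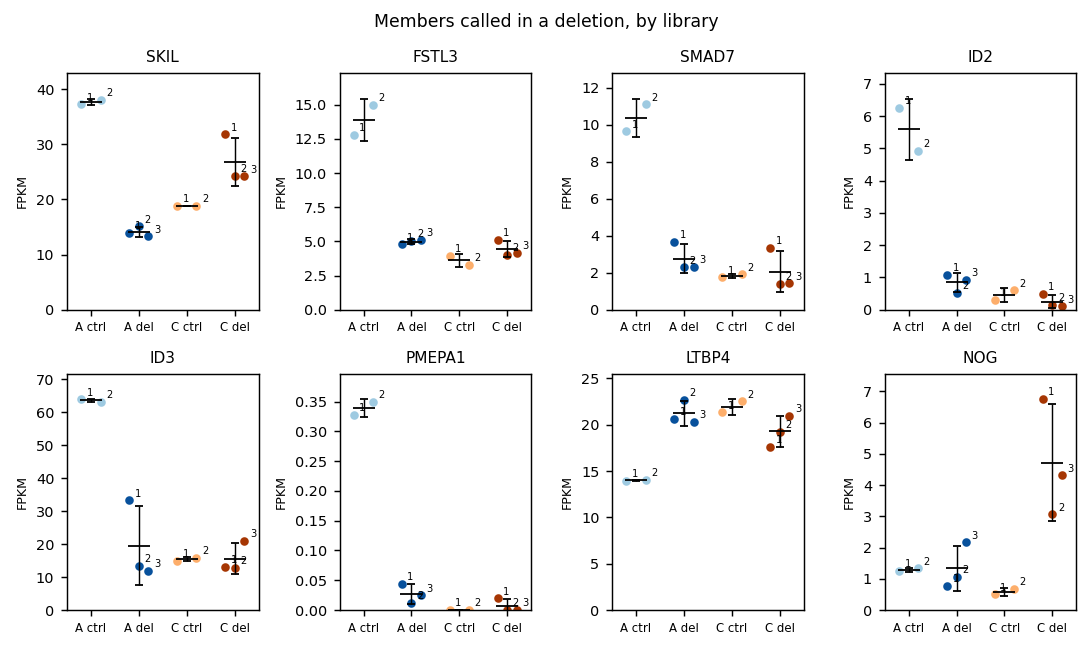
FPKM of the 8 members past the thresholds in either deletion, *PMEPA1* included, by library (A, *VEGFA-LNC* set; C, *VEGFC-LNC* set; ctrl, controls; del, deletion clones), with numbers for the replicate and a bar for the mean with its SD. Both *VEGFA-LNC* controls stand above the other 8 libraries for *SKIL*, *FSTL3*, *SMAD7*, *ID2*, *ID3* and *PMEPA1* and below them for *LTBP4*, and the 3 *VEGFC-LNC* clones stand above the rest for *NOG*.

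Of the SMADs, only *SMAD7* was called. It encodes the inhibitory SMAD that blocks type I receptors. It fell from 9.66 and 11.1 FPKM in the *VEGFA-LNC* controls to 3.68, 2.30 and 2.32 FPKM in the clones (log2 difference -1.90, SE 0.37, FDR 0.0349). The *VEGFC-LNC* controls were at 1.75 and 1.92 FPKM, and the clones at 3.34, 1.42 and 1.43 FPKM lay on both sides of them (0.05, FDR 0.95). *SMAD6*, the inhibitory SMAD of the BMP branch, was at 2.13, 1.27 and 1.00 FPKM in the *VEGFA-LNC* clones against 1.64 and 2.05 FPKM in the controls, and its difference of -0.37 did not pass.

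Of the SMADs that carry the signal, *SMAD2*, *SMAD4* and *SMAD5* were nearly level and stayed within 8.14 to 10.5, 6.59 to 8.95 and 10.9 to 15.6 FPKM over all 10 libraries. *SMAD3* varied more. It was at 35.2 and 35.5 FPKM in the *VEGFA-LNC* controls and at 48.6, 33.2 and 55.7 FPKM in the clones, and in the *VEGFC-LNC* set at 35.1 to 39.2 FPKM. None of the 4 passed in either deletion, with log2 differences from -0.30 to 0.34.

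Of 4 target genes that passed the filter in 2 groups or more, 2 were called lower upon *VEGFA-LNC* deletion. *ID2*, an inhibitor of basic helix-loop-helix factors, fell from 6.26 and 4.92 FPKM in the controls to 1.09, 0.519 and 0.931 FPKM in the clones (log2 difference -2.63, SE 0.48, FDR 0.0293). These are 148 and 151 reads in the controls and 22, 13 and 22 reads in the clones. With a pseudocount of 0.01, *ID2* did not pass (limma FDR 0.058). *ID3*, of the same family, fell from 63.9 and 63.2 FPKM to 33.3, 13.5 and 11.9 FPKM (-1.86, SE 0.40, FDR 0.049). *ID1* was at 84.0 and 93.8 FPKM in the controls and at 57.6, 47.4 and 20.7 FPKM in the clones, again without overlap, but did not pass (-1.21, SE 0.41, FDR 0.158). The *ID* genes thus lay lower in each of the *VEGFA-LNC* clones, by an amount that differed between clones.

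Upon the other deletion, that of *VEGFC-LNC*, *ID1* was at 78.5 and 68.6 FPKM in the controls and at 55.8, 29.2 and 45.3 FPKM in the clones, all below the controls (-0.81, SE 0.41, FDR 0.318). *ID2* was at 0.310 and 0.608 FPKM in the controls and at 0.492, 0.159 and 0.109 FPKM in the clones, which overlapped. *ID3* was at 15.0 and 15.9 FPKM in the controls and at 13.2, 12.8 and 20.9 FPKM in the clones, on both sides. None of the *ID* genes was called there, and none was called in the test of the difference between the deletions.

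*PMEPA1*, which encodes a membrane protein induced by TGF-beta that holds back SMAD2 and SMAD3, was low in every library. It was at 0.328 and 0.350 FPKM in the *VEGFA-LNC* controls, from 26 and 36 reads, and at 0.044, 0.012 and 0.025 FPKM in the clones, from 3, 1 and 2 reads. Since it passed the filter through these controls alone, its fall is no test result. As a ratio of summed reads per depth, the controls were 13.1-fold above the clones, with an exact 95% interval of 5.69 to 37.1 that covers counting error only. It was listed at 0 in both *VEGFC-LNC* controls and in 2 of those clones, and at 0.020 FPKM in clone 1.

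*TGFBI*, an extracellular matrix protein named for its induction by TGF-beta, had a wide spread between the *VEGFA-LNC* clones. It was at 138 and 142 FPKM in the controls, at 181 FPKM in clone 1 and at 20.1 and 43.1 FPKM in clones 2 and 3 (log2 difference -1.37, SE 0.76, FDR 0.36). Its level was 74.9 and 71.7 FPKM in the *VEGFC-LNC* controls and 53.0, 21.9 and 34.3 FPKM in the clones, all lower (-1.10, SE 0.76, FDR 0.439).

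Among the ligands, none was called in either deletion. *INHBA*, which encodes the subunit of activin A, was at 5.77 and 5.53 FPKM in the *VEGFA-LNC* controls and at 1.79, 0.349 and 0.351 FPKM in the clones. It had the most negative difference among the members, -2.99, but with an SE of 0.67 it missed the threshold (FDR 0.0547). Conversely, *INHBA* was at 0.678 and 0.525 FPKM in the *VEGFC-LNC* controls and at 3.82, 1.22 and 1.32 FPKM in the clones, all higher (1.48, SE 0.67, FDR 0.273). The groups did not overlap in either set, and the difference between the deletions was 4.47 (SE 0.94, FDR 0.0601).

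*BMP6*, the BMP ligand with the highest level, was at 16.8 and 17.8 FPKM in the *VEGFA-LNC* controls and at 8.44, 13.8 and 8.27 FPKM in the clones (-0.80, SE 0.22, FDR 0.0923). It was at 9.35 and 9.01 FPKM in the *VEGFC-LNC* controls and at 11.1, 12.1 and 14.1 FPKM in the clones (0.43, SE 0.22, FDR 0.322). Its groups did not overlap either. The 50 genes nearest to *BMP6* on its chromosome had a median difference of -0.21 upon *VEGFA-LNC* deletion, and their part in the value was not tested.

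*TGFB1* ranged from 61.6 to 101 FPKM with overlapping groups and log2 differences of 0.11 and 0.19. *TGFB2* was at 0.272 and 0.352 FPKM in the *VEGFA-LNC* controls and at 0.148, 0.119 and 0.058 FPKM in the clones (-1.002, FDR 0.12), and at no more than 0.018 FPKM in the *VEGFC-LNC* set. *TGFB3* was at 0.337 and 0.264 FPKM in the *VEGFC-LNC* controls and at 0.558, 0.503 and 1.03 FPKM in the clones (0.94, FDR 0.297). *BMP2* did not exceed 0.043 FPKM and *BMP4* did not exceed 0.530 FPKM.

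The latent TGF-beta binding proteins hold secreted TGF-beta in the matrix until it is released. *LTBP4* rose from 13.93 and 14.05 FPKM in the *VEGFA-LNC* controls to 20.7, 22.7 and 20.3 FPKM in the clones (0.60, SE 0.12, FDR 0.0382), an FC of 1.51 that lies just past the threshold of 1.5. The *VEGFC-LNC* controls had 21.3 and 22.5 FPKM and their clones 17.6, 19.3 and 21.0 FPKM, all slightly lower (-0.19, FDR 0.402). The *VEGFA-LNC* clones thus lay at the level of the other control set. *LTBP3* was at 26.1 and 27.7 FPKM in the *VEGFA-LNC* controls, with 22.5 FPKM in clone 1 and 45.7 and 41.6 FPKM in clones 2 and 3. Its *VEGFC-LNC* controls were at 18.1 and 17.6 FPKM and the clones at 26.0, 29.3 and 27.3 FPKM (0.62, SE 0.26, FDR 0.256). *LTBP1* and *LTBP2* had overlapping groups in both sets.

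None of the 8 receptors was called. The type II receptor *TGFBR2* was at 85.9 and 90.2 FPKM in the *VEGFA-LNC* controls, at 59.5 FPKM in clone 1 and at 209 and 159 FPKM in clones 2 and 3 (0.51, SE 0.49, FDR 0.619). In the *VEGFC-LNC* set it was at 78.8 and 82.9 FPKM in the controls and at 104, 186 and 210 FPKM in the clones (0.98, SE 0.49, FDR 0.307). *TGFBR2* was thus above the controls in 5 of the 6 clones, and the exception was clone 1 of the *VEGFA-LNC* set. *ENG* was at 305 and 304 FPKM in the *VEGFA-LNC* controls, within the clones' range of 215 to 306 FPKM, and in the *VEGFC-LNC* set it was at 227 and 219 FPKM in the controls and at 240, 324 and 545 FPKM in the clones (0.64, FDR 0.297).

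The type I receptor *TGFBR1* was at 19.3 FPKM in clone 1 of the *VEGFA-LNC* set and at 8.93 and 12.1 FPKM in clones 2 and 3, around controls at 11.1 and 11.9 FPKM. *ACVR1*, *ACVR2A*, *TGFBR3* and *BMPR2* had log2 differences from -0.38 to 0.36. *ACVR2B*, an activin type II receptor, was at 1.04 and 1.05 FPKM in the *VEGFA-LNC* controls and at 1.84, 1.48 and 1.45 FPKM in the clones (0.56, FDR 0.203), near the 1.55 and 1.76 FPKM of the *VEGFC-LNC* controls.

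Several of these members separated clone 1 from clones 2 and 3 within a set, and lists of other genes did so too. The summed level of 10 proliferation markers was 152.7 and 145.8 FPKM in the *VEGFA-LNC* controls, 354.8 FPKM in clone 1 and 33.73 and 54.11 FPKM in clones 2 and 3. In the *VEGFC-LNC* set it was 405.9 and 395.4 FPKM in the controls, 232.9 FPKM in clone 1 and 54.05 and 123.2 FPKM in clones 2 and 3. The summed level of the endothelial list was lowest in clone 1 among the clones of each set. It was 395.7 and 409.9 FPKM in the *VEGFA-LNC* controls and 295.3, 1010 and 629.3 FPKM in the clones. In the *VEGFC-LNC* set it was 587.1 and 576.8 FPKM in the controls and 520.8, 786.7 and 874.4 FPKM in the clones. Clone 1 of the *VEGFC-LNC* set thus lay below its controls for both lists. *TGFBR2*, *ENG* and *TGIF1* were lowest in clone 1 of each set and *TGFBI*, *TGFBR1* and *SMAD7* highest. The part of proliferation and of the other lists in these values was not tested. *SKIL* and *FSTL3* fell by similar amounts in all 3 *VEGFA-LNC* clones.

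**Figure D3:**
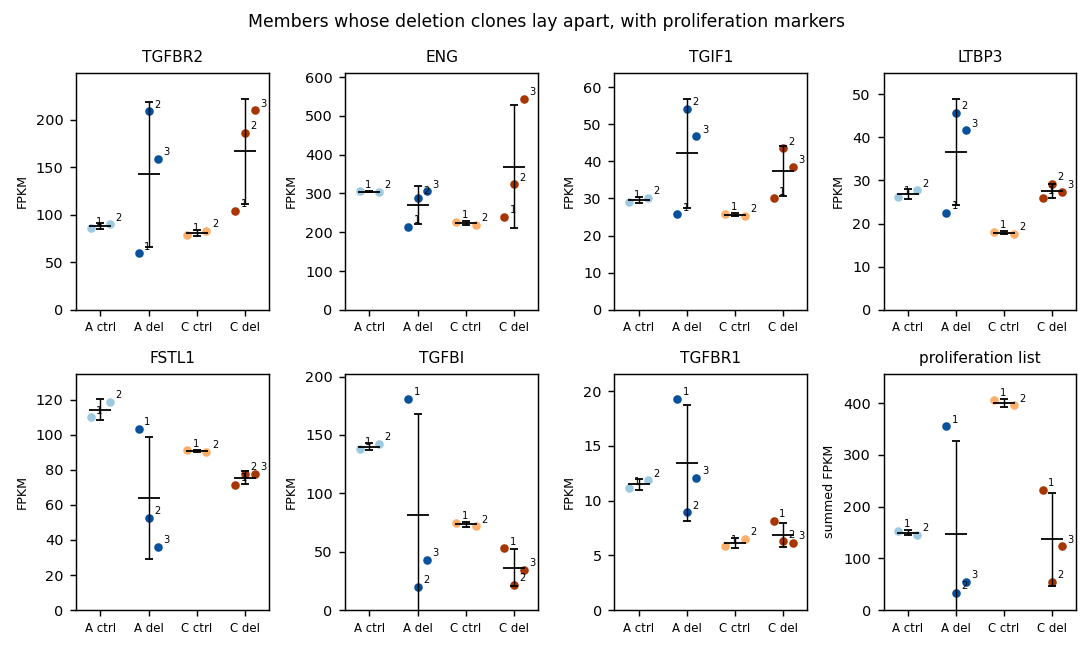
FPKM of 7 members whose clones lay apart, by library (A, *VEGFA-LNC* set; C, *VEGFC-LNC* set), and the summed FPKM of 10 proliferation markers in the last panel, with replicate numbers, means and SDs (cut at 0). Clone 1 of the *VEGFA-LNC* set is lowest for *TGFBR2*, *TGIF1* and *LTBP3* and highest for *TGFBI*, *TGFBR1* and the proliferation list among the clones of that set.

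The count of called members rested on single libraries, and the share called over all genes moved with it. Without clone 1 of the *VEGFA-LNC* set, 15 of the 38 members were called upon *VEGFA-LNC* deletion in place of 7 (*PMEPA1* counted), while the share over all genes went from 2.75% to 13%. Without clone 2 or clone 3 the counts were 3 and 2, against 1.22% and 0.81% of all genes. Without *VEGFA-LNC* control 1 or control 2, which leaves a lone control, the median log2 difference of the 38 members was -0.31 and -0.218, against -0.287 with both. The calls without a control are given with the other alternatives below. *SKIL* and *FSTL3* passed without each of the *VEGFA-LNC* clones in turn, and *SKIL* was the 1 member called when the 5 libraries of the *VEGFA-LNC* set were fitted alone, against 0.15% of all genes.

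**Figure D4:**
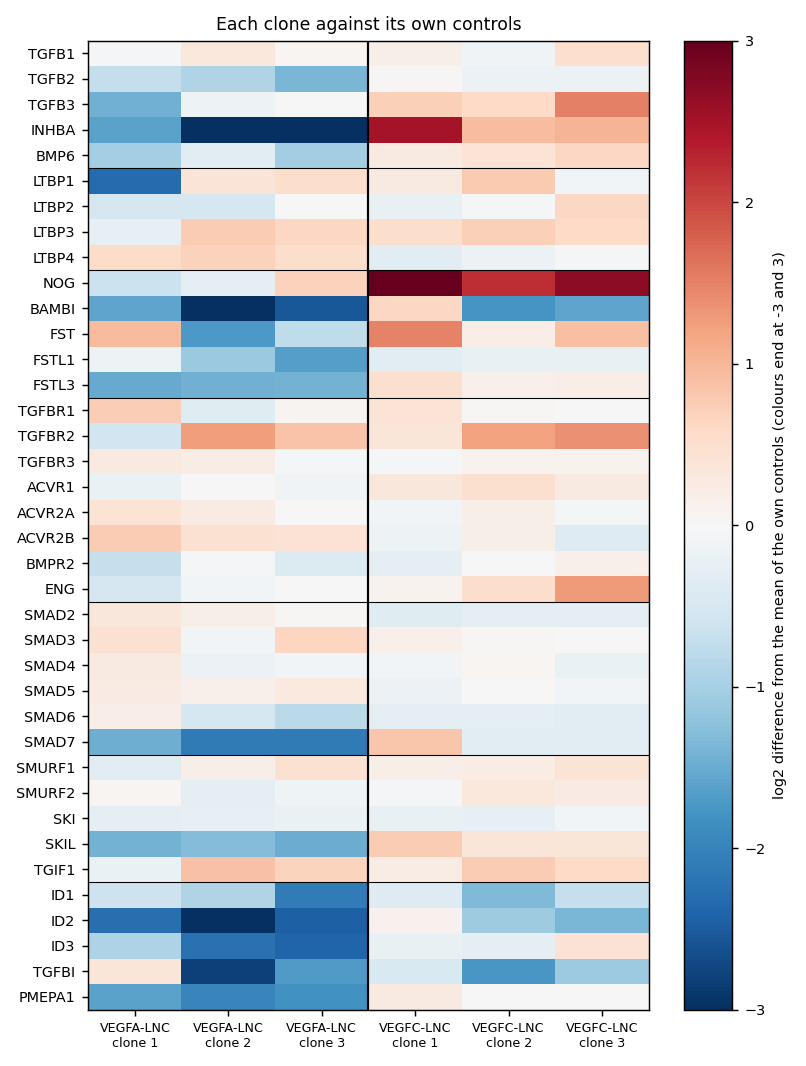
Log2 difference of FPKM + 0.1 of each clone from the mean of its own controls for the 38 members tested (rows, by role), with colours ending at -3 and 3. *FSTL3*, *SKIL*, *SMAD7*, *ID2*, *ID3* and *PMEPA1* are below the controls (blue) in the 3 *VEGFA-LNC* clones, and *NOG* is above them (red) in the 3 *VEGFC-LNC* clones.

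The control sets were compared with each other as well, since both were of the same line without a deletion. Of the 36 members that passed the filter in 2 groups or more, 8 were called lower and 1 higher in the *VEGFC-LNC* controls than in the *VEGFA-LNC* controls. Over all tested genes, 9.76% were lower and 2.92% higher, and over those that passed in 2 groups or more 9.53% and 2.89%. The lower members were *INHBA*, *BMP6*, *FST*, *FSTL3*, *SMAD7*, *SKIL*, *ID2* and *ID3*, and the higher one was *LTBP4*. Of these, *FST* had 36 and 38 reads in the *VEGFA-LNC* controls and 1 read in each *VEGFC-LNC* control. *ID2* had 148 and 151 reads against 4 and 20. *INHBA* was lower by -3.04 (SE 0.73, FDR 0.0307), *ID2* by -3.39 (SE 0.53, FDR 0.00813), *SMAD7* by -2.44 (SE 0.40, FDR 0.00996) and *FSTL3* by -1.92 (SE 0.18, FDR 0.00214) on the log2 scale. *PMEPA1*, with 62 reads in the *VEGFA-LNC* controls and 0 reads in the *VEGFC-LNC* controls, was at least 17.4-fold lower by depth, with a floor of 3 reads over the group, a direction that the filter fixed. The median difference was -0.38 over the 36 members and -0.11 over all tested genes. The 50 genes nearest to *FSTL3* and to *BMP6* had medians of -0.24 and -0.22 here, and their part was not tested.

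The 6 members called upon *VEGFA-LNC* deletion are among these 9, in the same direction, and both comparisons use the *VEGFA-LNC* controls. In 12 of the 36 members both *VEGFA-LNC* controls lay above the other 8 libraries, clones of either set and the other controls alike, where this held for 16.3% of all tested genes and for 16.0% of those that passed in 2 groups or more. The 12 were *INHBA*, *BMP6*, *BAMBI*, *FSTL1*, *FSTL3*, *BMPR2*, *SMAD7*, *SKI*, *SKIL*, *ID1*, *ID2* and *ID3*. In 2 members, *LTBP4* and *ACVR2B*, they lay below all others, where this held for 5.7% of genes.

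Set against all 4 controls, the *VEGFA-LNC* clones had 0 called members by limma, against 0.218% of all tested genes. At an unadjusted p under 0.05, 3 of the 38 members were higher and 3 lower, and the share over all genes at that cut was not counted. For the 6 members called against their own controls, the log2 differences were then -0.91 for *SKIL*, -0.50 for *FSTL3* and -0.69 for *SMAD7*. They were -0.94 for *ID2*, -0.84 for *ID3* and 0.27 for *LTBP4*. The limma FDRs of these 6 ran from 0.214 to 0.675. *NOG* in the *VEGFC-LNC* clones was 2.23 (SE 0.43, FDR 0.0548) against all 4 controls, and did not pass either. The deletion and the state of the control libraries at hand cannot be told apart for members whose own controls stand apart from the other control set.

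Tested directly, the difference between the deletion effects was called for 2 members, *SKIL* and *FSTL3*, against 1.46% of all tested genes in either direction. In both, the log2 difference from the own controls was more positive upon *VEGFC-LNC* deletion. The test also holds the gap between the control sets, -0.996 for *SKIL* and -1.915 for *FSTL3*. The clones themselves overlapped for *FSTL3*, at 5.10, 4.04 and 4.15 FPKM for *VEGFC-LNC* and 4.78, 5.02 and 5.12 FPKM for *VEGFA-LNC*. For *SKIL* they did not overlap. For the other members a difference between the deletions was not shown.

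Beyond the members, 56 of 88 further pathway genes, listed by role, were tested, and 54 of them passed the filter in 2 groups or more. Of these 54, 5 were called lower and 0 higher by limma upon *VEGFA-LNC* deletion, with a median log2 difference of -0.23, against 1.83% and 0.708% of genes that passed likewise. Upon *VEGFC-LNC* deletion 2 were called higher and 0 lower, with a median of 0.21, against 0.152% and 0.32%. At an unadjusted p under 0.05, 16 of the 56 were lower and 0 higher upon *VEGFA-LNC* deletion and 12 were higher and 7 lower upon *VEGFC-LNC* deletion. Against all 4 controls these were 6 lower and 0 higher, and 4 higher and 11 lower, so that the balance of these counts turned for *VEGFC-LNC*. The 56 include *COL1A1*, which passed the filter through the *VEGFA-LNC* controls alone. They also include *INHBE*, which passed through the *VEGFC-LNC* clones alone. The filter thus fixed the direction of both genes there. The share over all genes at an unadjusted p under 0.05 was not counted, so that the balance of these counts is no result about these genes. Between control sets, 17 of the 54 were called lower and 0 higher, against 9.53% and 2.89% of genes that passed likewise. The genes called lower upon *VEGFA-LNC* deletion were all among them, and both comparisons use the *VEGFA-LNC* controls. The share of all genes called lower in both was not counted. None of the 19 other SMADs and SMAD regulators was called in either deletion. Among 10 other antagonists and activators, 3 were called lower upon *VEGFA-LNC* deletion. *ITGAV* and *ITGB8*, which encode the chains of an integrin that releases TGF-beta from its latent form, were among them.

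*ITGAV* fell from 78.6 and 80.3 FPKM to 33.2, 37.7 and 35.2 FPKM (-1.17, SE 0.16, FDR 0.012). *ITGB8* fell from 4.50 and 4.68 FPKM to 0.2, 0.198 and 0.354 FPKM (-3.77, SE 0.52, FDR 0.012). *FBN1*, the microfibril protein to which latent complexes bind, fell as well, from 12.8 and 13.4 FPKM to 7.199, 5.158 and 6.539 FPKM (-1.06, FDR 0.0292). The *VEGFC-LNC* controls were also lower than the *VEGFA-LNC* controls, at 17.5 and 18.8 FPKM for *ITGAV* (FDR 0.00137), at 0.637 and 0.764 FPKM for *ITGB8* (FDR 0.0237) and at 6.84 and 6.65 FPKM for *FBN1* (FDR 0.0245).

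Among 18 other target genes that passed the filter in 2 groups or more, 2 were called lower upon *VEGFA-LNC* deletion (*ATOH8* and *SERPINE2*) and 1 higher upon *VEGFC-LNC* deletion (*COL4A1*). *SERPINE2*, a secreted inhibitor of serine proteases, fell from 14.4 and 15.3 FPKM in the *VEGFA-LNC* controls to 1.02, 1.32 and 2.12 FPKM in the clones (-3.30, SE 0.48, FDR 0.0156), and was at 1.26 and 1.03 FPKM in the *VEGFC-LNC* controls (FDR 0.00689 between control sets). *ATOH8*, a basic helix-loop-helix factor, fell from 1.48 and 1.46 FPKM to 0.471, 0.083 and 0.118 FPKM (-2.47, FDR 0.0369), and was at 0.144 and 0.155 FPKM in the *VEGFC-LNC* controls (FDR 0.0181). *COL1A1*, a fibrillar collagen chain, was at 0.284 and 0.332 FPKM in the *VEGFA-LNC* controls and at no more than 0.091 FPKM elsewhere, and passed the filter through these controls alone. *COL4A1*, a collagen chain of basement membranes, rose from 6.69 and 6.37 FPKM in the *VEGFC-LNC* controls to 17.7, 14.3 and 15.1 FPKM in the clones (1.25, SE 0.16, FDR 0.0149). The *VEGFC-LNC* clones were above every other library for *COL4A1*, whose highest value elsewhere was 8.86 FPKM. *GDF15*, a distant family member, rose from 56.5 and 58.8 FPKM in the *VEGFC-LNC* controls to 110, 126 and 93.9 FPKM in the clones (0.92, SE 0.15, FDR 0.0467).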

How the data were processed

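RNA-Seq of 10 EA.hy926 libraries was analysed. The authors deposited FPKM values per RefSeq transcript on hg19, and how that table was made is not given in the sources used here. For the reads, the submitters' processing notes name Trim Galore 0.4.4, STAR 2.5.4b and featureCounts. FPKM times transcript length gave whole reads for at least 99.96% of the values checked (tolerance 0.1 read), hence the depths. Reads carry no molecular identifiers.

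Groups and replicate numbers came from the labels. The transcript with the highest mean was kept per symbol (112 transcript rows for the 41 members). Genes with 1 cpm in at least 2 libraries were tested in R 4.3.3 with limma 3.58.1 (lmFit, and eBayes with trend) on log2(FPKM + 0.1), in 1 fit of 4 groups. The FDR (Benjamini-Hochberg) covered all 13333 genes, with thresholds of 0.05 and a 1.5-fold change. The table holds FPKM per transcript, and the count test of the study's methods was not run on the recovered reads. SDs and ranges are of FPKM. The procedure was tested on simulated data with the same dispersion in every group, unlike the unequal spreads of controls and clones here. Promoter windows were read from GRCh37.

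The members and all lists were chosen with earlier results of these data known. The text names every member and, of the further genes, those called in a deletion, with values for examples. A gene and some sequences are not reported here. Alternatives comprised the pseudocount, filters, scaling, transcript choice, each library left out, the replicate block, control pairs as 1 sample, 5 libraries alone and all 4 controls. Python 3.11.15 and scipy 1.17.1 gave the exact tests.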

Additional observations from a re-analysis of the deposited data

Results flagged for a closer look

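For 7 genes, 2 of them members, the test of the difference between the deletion effects passed (VEGFC-LNC effect minus VEGFA-LNC effect, log2 scale, limma FDR), with each gene's difference higher upon *VEGFC-LNC* deletion. For the members these were 1.901 for *SKIL* (FDR 0.00688) and 1.743 for *FSTL3* (FDR 0.0134). For further pathway genes they were 3.895 for *ITGB8* (FDR 0.0415), 2.327 for *THBS1*, an activator of latent TGF-beta (FDR 0.0276), 1.816 for *ITGAV* (FDR 0.0115), 1.327 for *COL4A1* (FDR 0.0276) and 1.138 for *GDF15* (FDR 0.0441). *THBS1* was at 479 and 505 FPKM in the *VEGFA-LNC* controls and at 177, 289 and 277 FPKM in the clones, and at 194 and 189 FPKM in the *VEGFC-LNC* controls and 380, 430 and 646 FPKM in the clones. Each difference rests on both control sets, which themselves differed in 6 of these 7 genes, *COL4A1* being the exception. With control pairs counted as 1 sample, 1 sample is left in each control group, so that this fit cannot decide about a call of either member.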

How the results depend on the processing

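In the main analysis of all 38 members, *PMEPA1* and *TGFB2* included, 7 were called upon *VEGFA-LNC* deletion, 1 upon *VEGFC-LNC* deletion, 11 between control sets and 2 in the difference between the deletions. The share called over all genes was 2.75%, 0.473%, 12.7% and 1.46% in this order. Against all 4 controls it was 0.218% for *VEGFA-LNC* and 0.413% for *VEGFC-LNC* deletion. For *VEGFA-LNC* deletion, a pseudocount of 0.01 gave 4 (2.27% of all genes) and the own 5 libraries 1 (0.15%). The replicate block gave 2, *SKIL* and *FSTL3* (1.13%), and all 4 controls 0. For *VEGFC-LNC* deletion, no filter (0.363% of the 22840 genes then tested), the replicate block (0.15%), the own 5 libraries (0.195%) and all 4 controls gave 0. For the difference, a pseudocount of 1 (1.86%) and no filter (1.44%) gave 4 each. Control pairs counted as 1 sample leave 1 sample in each control group, so that no count is read from that fit. The calls thus rest on both controls of a pair being counted as separate samples. Leaving out 1 library gave 0 to 15 for *VEGFA-LNC* deletion, 0 to 2 for *VEGFC-LNC* deletion, 1 to 15 between control sets and 0 to 9 for the difference, while the share called over all genes ran from 0.045% to 13%, 0.0375% to 8.69%, 0.248% to 23% and 0.0375% to 5.21%. Over the 36 members that passed the filter in 2 groups or more, a choice made after seeing the data, the counts were 6, 1, 9 and 2. Without any 1 of the 4 controls, which leaves a lone control assumed to vary like the other groups, the counts were 0 or 2, 0, 1 and 0 in this order, and each count was highest without clone 1 of the *VEGFA-LNC* set. *NOG* was also lost without any 1 *VEGFC-LNC* clone. Of the 22 alternatives, *SKIL* was called in 18, *FSTL3* in 17, *SMAD7* in 12, *ID2* in 11, *LTBP4* in 9 and *ID3* in 5 upon *VEGFA-LNC* deletion. *NOG* was called in 10 upon *VEGFC-LNC* deletion. Directions turned for *FST* (-0.64) and *INHBA* (-0.041) upon *VEGFC-LNC* deletion against all 4 controls and for *LTBP1* (-0.128, in a range of -0.128 to 1.286 over the libraries left out) in the difference without clone 1 of the *VEGFA-LNC* set, and the cause was not tested. Of 1385 differences of single genes and medians of members under 22 alternatives, 1191 counted as the same, 155 lost the call, 36 gained it and 3 turned. A single gene counted as the same when it kept direction and call. A median, which has no call, did so when it moved by less than the members' median SD between clones. Same-numbered libraries did not deviate together (correlations of 0.021 and 0.026 in the *VEGFA-LNC* set and -0.043 and 0.047 in the *VEGFC-LNC* set). Counting error limits *PMEPA1*, *TGFB2* and *BAMBI*, which had 0 to 29 reads in the clones. It also limits *ID2*, with 22, 13 and 22 reads in the *VEGFA-LNC* clones and 15, 4 and 1 in the *VEGFC-LNC* clones. *FST* had 1 read in each *VEGFC-LNC* control.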

Other observations

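The BMP branch has further genes whose clones lay apart. *ACVRL1*, the endothelial type I receptor ALK1, was at 52.2 and 56.0 FPKM in the *VEGFA-LNC* controls, at 22.5 FPKM in clone 1 and at 146 and 78.0 FPKM in clones 2 and 3. *SMAD1*, a receptor SMAD for BMPs, was at 5.64 and 4.93 FPKM in these controls, at 5.30 FPKM in clone 1 and at 31.2 and 20.2 FPKM in clones 2 and 3. In the *VEGFC-LNC* set *SMAD1* was at 12.9 and 12.5 FPKM in the controls, at 6.49 FPKM in clone 1 and at 16.8 and 18.8 FPKM in clones 2 and 3. Both genes were lower in clone 1 than in clones 2 and 3 in both sets, and neither was called. *INHBE*, an inhibin subunit gene, was at 0 and 0.067 FPKM in the *VEGFC-LNC* controls and at 1.78, 0.528 and 0.603 FPKM in the clones, and passed the filter through these clones alone. *ACTA2*, smooth muscle actin, was at 19.8 and 19.5 FPKM in the *VEGFA-LNC* controls and at 8.11, 40.7 and 59.8 FPKM in the clones. It was at 0.95 and 0.659 FPKM in the *VEGFC-LNC* controls and at 1.21, 4.46 and 19.02 FPKM in the clones. It was called in neither deletion, while the control sets differed by -4.47 (limma FDR 0.0412). Of the 10 markers of fibroblasts and smooth muscle, *ACTA2* alone reached 1 FPKM in any library. Their summed level was 20.81 to 21.22 FPKM in the *VEGFA-LNC* controls, 8.557 to 60.71 in those clones, 1.17 to 1.594 in the *VEGFC-LNC* controls and 1.717 to 20 in those clones, and the part of this list in the members' values was not tested.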
